A study of Mus musculus with 6 samples.

Results

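The uptake of glucose and its conversion to lactate were followed through 10 mouse genes: the glucose transporter gene Slc2a1, the enzyme genes Hk2, Gpi1, Pfkl, Aldoa, Tpi1, Pgk1, Pgam1 and Pkm, and Ldha, which forms lactate. They were listed by symbol for their place in the pathway, with earlier results of these data known, and all 10 were found by Ensembl identifier among the 43629 gene rows of the count table. The samples were tumours of B16F10, a mouse melanoma line, raised under the skin of female C57BL/6J mice that were 8 weeks old at injection. Tumours of a treatment were pooled into 1 RNA sample, so there were 6 pools, 1 library per treatment, and the number of mice in a pool was not used here. Mice of the group AZD5363+MK1775+anti-PD-1 received AZD5363, an inhibitor of the kinase AKT, MK1775, an inhibitor of the kinase WEE1, and an antibody that blocks the T cell receptor PD-1. Mice of the group AZD5363+MK1775 received both inhibitors with control IgG. Mice of the groups KS100+anti-PD-1 and KS100 received KS100, an inhibitor of aldehyde dehydrogenases, with the PD-1 antibody or with control IgG. The group anti-PD-1 received DMSO with the PD-1 antibody, and the control group received DMSO with control IgG. The labels name DMSO in these last groups only. Below, the tumours of a group mean its single pooled library. Treatment began once tumours were well supplied with vessels, was given daily and lasted until control tumours measured 2000 mm3. With these groups the question was how each treatment changed the transcripts of glucose uptake and glycolysis in the tumour.

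Glycolysis splits glucose into pyruvate and yields ATP without oxygen. SLC2A1, known as GLUT1, carries glucose across the cell membrane, hexokinase traps it as glucose 6-phosphate, and lactate dehydrogenase A turns the resulting pyruvate into lactate, which restores the NAD+ that the pathway needs. Many tumours, melanomas among them, make lactate even where oxygen is present. The hypoxia-inducible factor HIF1 and the factor MYC are known activators of many of these genes, and AKT is known to promote glucose uptake and hexokinase activity.

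The pools differed in depth and in composition. They held 25521 to 1591673 counts, a 62.4-fold range, with control and anti-PD-1 tumours the deepest and KS100+anti-PD-1 tumours the shallowest. Where a gene had 0 counts, a level of up to 3 counts remains possible, which corresponds to 174 normalised CPM in KS100+anti-PD-1 tumours and 1.96 in control tumours. Normalised CPM here is CPM computed on the TMM-scaled library size. Mitochondrial genes took 13.2% to 19.8% of counts in the 4 inhibitor pools, against 1.29% in anti-PD-1 tumours and 1.89% in control tumours. AZD5363+MK1775+anti-PD-1 tumours stood apart with 27.4% of their counts on ribosomal RNA genes, against 0.121% in control tumours. They also had the most skeletal muscle RNA. All 8 muscle markers (Acta1, Ckm, Myh4, Myh1, Tnnt3, Ttn, Atp2a1 and Mylpf) were detected there, and they summed to 13643 normalised CPM. Their sum was 0 in AZD5363+MK1775 tumours, 985 in KS100+anti-PD-1 tumours (3 of 8 detected), 272 in KS100 tumours (2 of 8), 703 in anti-PD-1 tumours (8 of 8) and 53.0 in control tumours (7 of 8). Melanocyte markers, which define the labelled tumour, were detected at 7 or 8 of 8 in each of the 6 pools. They summed to 17478 normalised CPM in AZD5363+MK1775+anti-PD-1 tumours, 9865 in AZD5363+MK1775 tumours, 3709 in KS100+anti-PD-1 tumours, 6375 in KS100 tumours, 18504 in anti-PD-1 tumours and 22347 in control tumours. In bulk RNA of this kind, fewer cells of a type and less RNA per cell cannot be told apart.

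Together the 10 genes took 0.385% of all counts in AZD5363+MK1775+anti-PD-1 tumours (95% exact binomial interval 0.364% to 0.406%), 0.969% in AZD5363+MK1775 tumours, 0.196% in KS100+anti-PD-1 tumours, 0.398% in KS100 tumours, 1.05% in anti-PD-1 tumours and 0.903% in control tumours. Intervals here and below cover counting error only, since no treatment had a replicate and the counts carry no molecular identifiers. Ldha made up 23.0% (20.8 to 25.4) of the counts of the 10 genes in AZD5363+MK1775+anti-PD-1 tumours. Its share was the highest of the 10 in each of the remaining pools, at 74.4% (68.6 to 79.6) in AZD5363+MK1775 tumours, 58.0% (43.2 to 71.8) in KS100+anti-PD-1 tumours, 74.7% (67.7 to 80.9) in KS100 tumours, 72.5% (71.6 to 73.4) in anti-PD-1 tumours and 68.4% (67.7 to 69.2) in control tumours. In AZD5363+MK1775+anti-PD-1 tumours Aldoa led with 33.9% (31.4 to 36.6) of the 10 genes' counts, against 4.04% (3.73 to 4.38) in control tumours. Hk2 made up 14.7% (12.9 to 16.8) in that pool, against 2.41% (2.16 to 2.67) in control tumours. Since these shares are taken within a pool, no scaling between pools enters them. The library reads about 1 tag per transcript end, so levels of different genes are compared here without division by length.

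**Figure D1:**
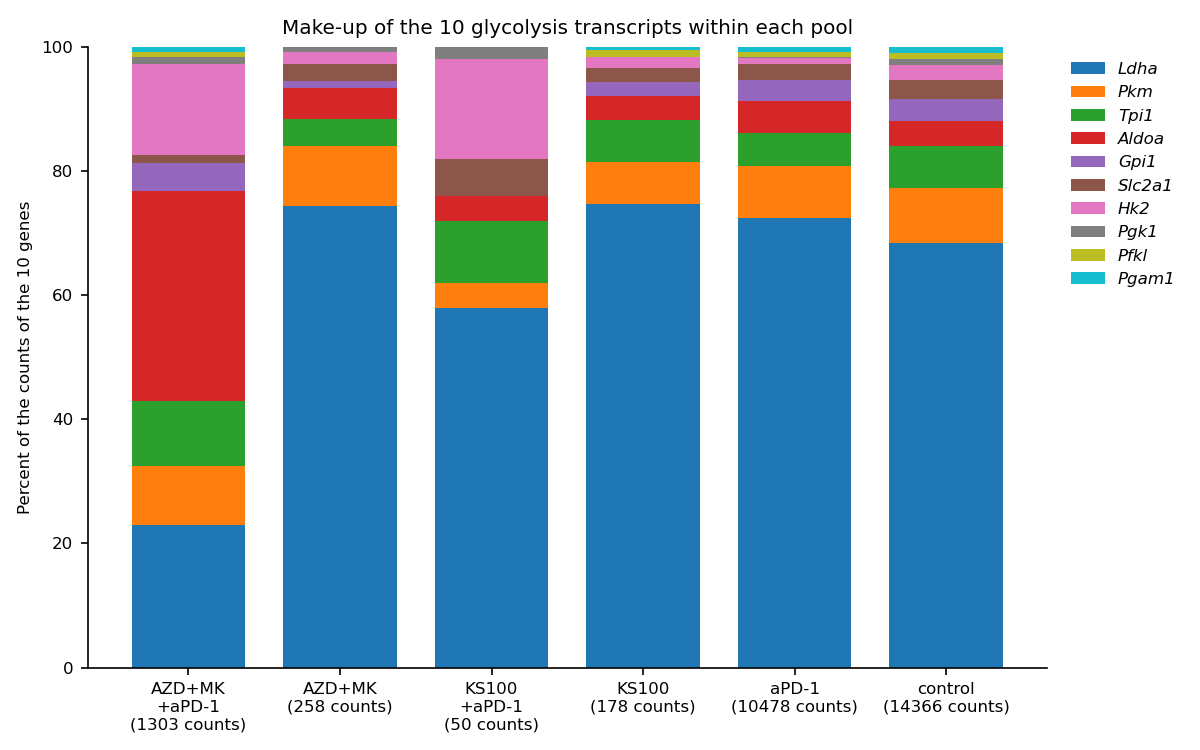
Share of each of the 10 glycolysis genes in their summed counts, in percent, for each pool (aPD-1, anti-PD-1; AZD+MK, AZD5363+MK1775), with the summed counts under each bar. Ldha made up 58.0% to 74.7% of the bar in 5 pools and 23.0% in AZD5363+MK1775+anti-PD-1 tumours, where Aldoa made up 33.9% and Hk2 14.7%.

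The transcripts of glucose entry and of its first phosphorylation lay on opposite sides of the control level in AZD5363+MK1775+anti-PD-1 tumours. Slc2a1 (ENSMUSG00000028645, chr4:119108711-119137983, plus strand, GRCm38) encodes the transporter GLUT1. It had 84.6 normalised CPM in AZD5363+MK1775+anti-PD-1 tumours (17 counts), 255 in AZD5363+MK1775 tumours (7 counts), 174 in KS100+anti-PD-1 tumours (3 counts), 121 in KS100 tumours (4 counts), 274 in anti-PD-1 tumours (271 counts) and 280.2 in control tumours (428 counts). Only AZD5363+MK1775+anti-PD-1 tumours had an interval, 49.3 to 135, that lay wholly below those of anti-PD-1 tumours (242 to 309) and control tumours (254 to 308), and the intervals of the shallower pools overlapped these. Hk2 (ENSMUSG00000000628, chr6:82725025-82774454, minus strand) encodes hexokinase 2, which phosphorylates glucose and is the main hexokinase of skeletal muscle as well as of many tumours. It had 955 normalised CPM in AZD5363+MK1775+anti-PD-1 tumours (192 counts), 182 in AZD5363+MK1775 tumours (5 counts), 464 in KS100+anti-PD-1 tumours (8 counts), 90.6 in KS100 tumours (3 counts), 106 in anti-PD-1 tumours (105 counts) and 227 in control tumours (346 counts). AZD5363+MK1775+anti-PD-1 tumours had the highest value, with an interval (825 to 1100.0) that overlapped that of KS100+anti-PD-1 tumours (200.2 to 914), and anti-PD-1 tumours lay below control tumours with no overlap of their intervals (86.8 to 129 and 203 to 252).

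Among the enzymes that rearrange and split the sugar, Aldoa stood apart from its neighbours. Gpi1 (ENSMUSG00000036427, chr7:34201330-34230336, minus strand) encodes glucose-6-phosphate isomerase. It had 58 counts in AZD5363+MK1775+anti-PD-1 tumours (288 normalised CPM), 3 in AZD5363+MK1775 tumours (109), 0 in KS100+anti-PD-1 tumours, 4 in KS100 tumours (121), 346 in anti-PD-1 tumours (349.9) and 510 in control tumours (334). Pfkl (ENSMUSG00000020277, chr10:77986947-78010083, minus strand) encodes the liver form of phosphofructokinase, the committed step of the pathway. It had 49.7 normalised CPM in AZD5363+MK1775+anti-PD-1 tumours (10 counts), 60.4 in KS100 tumours (2 counts), 82.9 in anti-PD-1 tumours (82 counts) and 94.9 in control tumours (145 counts), and 0 counts in AZD5363+MK1775 and KS100+anti-PD-1 tumours. The intervals of AZD5363+MK1775+anti-PD-1 tumours (23.9 to 91.5) and control tumours (80.1 to 112) overlapped.

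Aldoa (ENSMUSG00000030695, chr7:126795234-126800751, minus strand) encodes aldolase A, the aldolase of muscle and of most tumours, which splits fructose 1,6-bisphosphate into triose phosphates. It had 2198 normalised CPM in AZD5363+MK1775+anti-PD-1 tumours (442 counts), 473 in AZD5363+MK1775 tumours (13 counts), 116 in KS100+anti-PD-1 tumours (2 counts), 211 in KS100 tumours (7 counts), 543 in anti-PD-1 tumours (537 counts) and 380.4 in control tumours (581 counts). AZD5363+MK1775+anti-PD-1 tumours were far above the rest, and anti-PD-1 tumours lay above control tumours without overlap (498 to 591 and 350.1 to 413). Tpi1 (ENSMUSG00000023456, chr6:124810586-124814296, minus strand) encodes triose-phosphate isomerase, which interconverts the triose phosphates. It had 671 normalised CPM in AZD5363+MK1775+anti-PD-1 tumours (135 counts), 400.4 in AZD5363+MK1775 tumours (11 counts), 289.8 in KS100+anti-PD-1 tumours (5 counts), 363 in KS100 tumours (12 counts), 571 in anti-PD-1 tumours (565 counts) and 638 in control tumours (975 counts). The intervals of AZD5363+MK1775+anti-PD-1 tumours (563 to 795) and control tumours (599 to 679.7) overlapped.

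**Figure D2:**
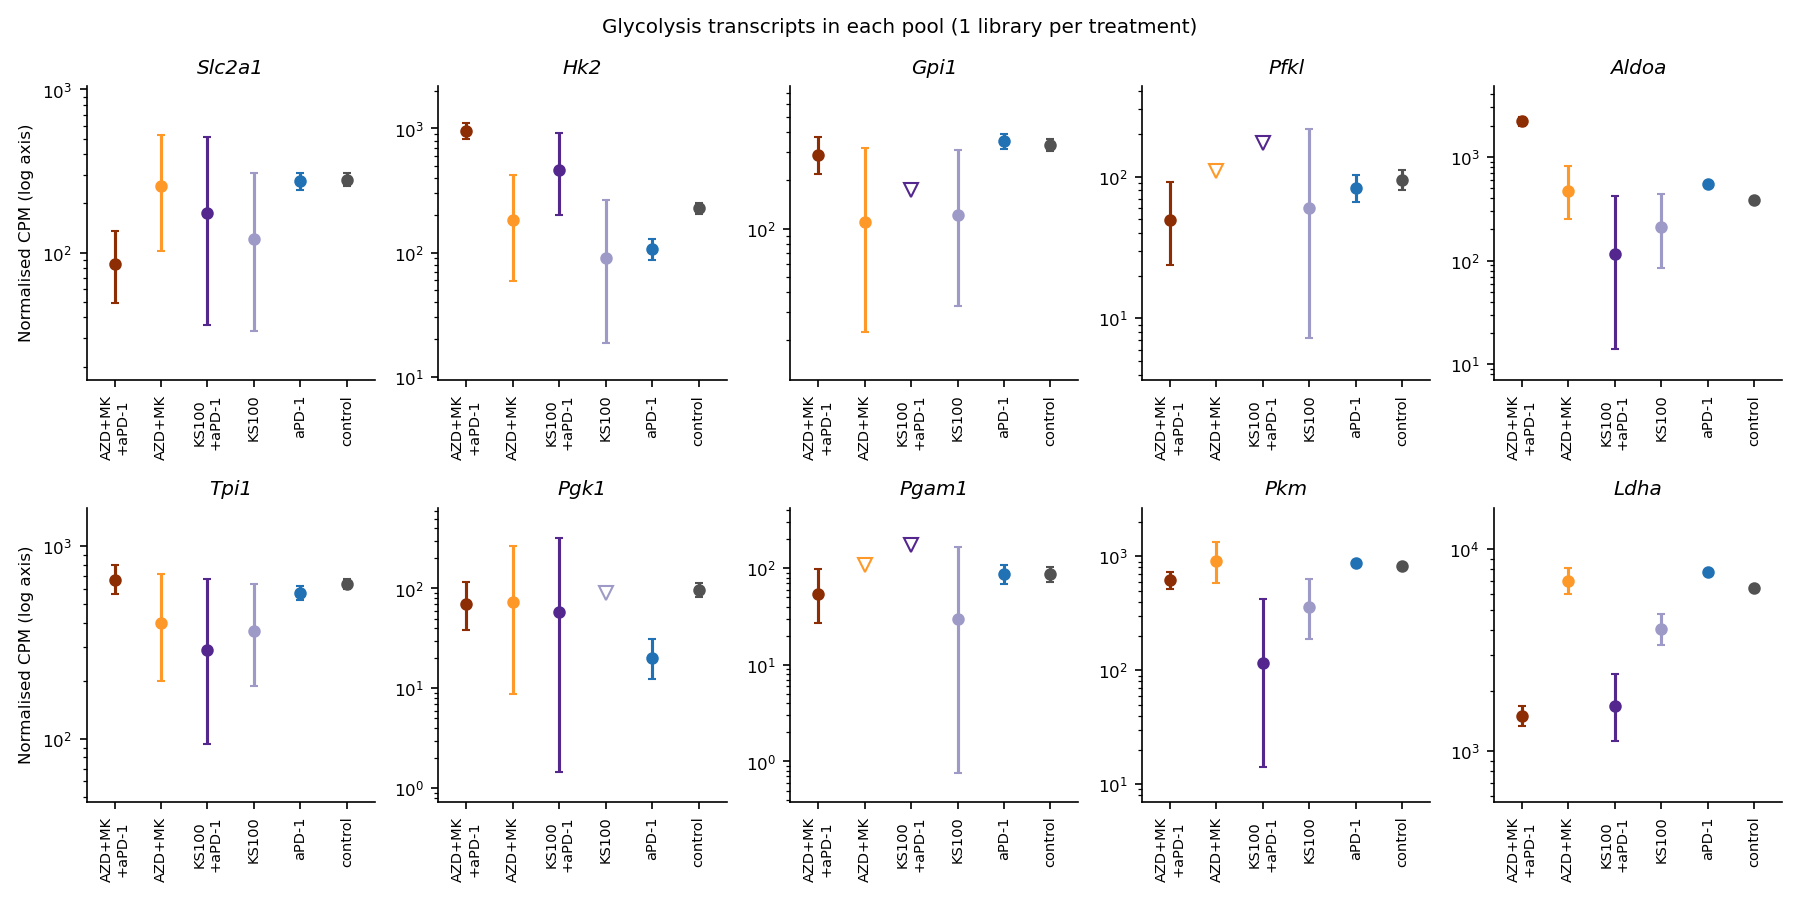
Level of each of the 10 genes in normalised CPM on a log axis, 1 library per treatment (aPD-1, anti-PD-1; AZD+MK, AZD5363+MK1775). Points are values, bars are 95% exact Poisson intervals (counting error only), and open triangles mark the level of 3 counts for a gene at 0 counts; Aldoa and Hk2 peaked in AZD5363+MK1775+anti-PD-1 tumours at 2198 and 955, while Ldha had its lowest value there at 1492.

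The transcripts of the lower pathway that precede Ldha were each less abundant than Ldha in all 6 pools. Pgk1 (ENSMUSG00000062070, chrX:106187100-106203699, plus strand) encodes phosphoglycerate kinase 1, the first ATP-yielding step. It had 14 counts in AZD5363+MK1775+anti-PD-1 tumours (69.6 normalised CPM), 2 in AZD5363+MK1775 tumours (72.8), 1 in KS100+anti-PD-1 tumours (58.0), 0 in KS100 tumours, 20 in anti-PD-1 tumours (20.2) and 148 in control tumours (96.9). The anti-PD-1 tumours, at 12.4 to 31.2, lay below AZD5363+MK1775+anti-PD-1 tumours, at 38.1 to 117, and below control tumours, at 81.9 to 114. Pgam1 (ENSMUSG00000011752, chr19:41911923-41918660, plus strand) encodes phosphoglycerate mutase 1, which moves the phosphate of 3-phosphoglycerate. It had 54.7 normalised CPM in AZD5363+MK1775+anti-PD-1 tumours (11 counts), 30.2 in KS100 tumours (1 count), 87.0 in anti-PD-1 tumours (86 counts) and 87.1 in control tumours (133 counts), with overlapping intervals, and 0 counts in AZD5363+MK1775 and KS100+anti-PD-1 tumours.

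Pkm (ENSMUSG00000032294, chr9:59656368-59679375, plus strand) encodes the pyruvate kinases PKM1 and PKM2, which share the 3′ end read here, so these splice forms cannot be told apart. It had 617 normalised CPM in AZD5363+MK1775+anti-PD-1 tumours (124 counts), 910.1 in AZD5363+MK1775 tumours (25 counts), 116 in KS100+anti-PD-1 tumours (2 counts), 363 in KS100 tumours (12 counts), 879 in anti-PD-1 tumours (869 counts) and 830.2 in control tumours (1268 counts). The intervals of AZD5363+MK1775+anti-PD-1 tumours (513 to 735) and of both KS100 pools lay wholly below that of control tumours (785 to 877). Ldha (ENSMUSG00000063229, chr7:46841475-46855627, plus strand) encodes the A subunit of lactate dehydrogenase. It had 1492 normalised CPM in AZD5363+MK1775+anti-PD-1 tumours (300 counts), 6989 in AZD5363+MK1775 tumours (192 counts), 1681 in KS100+anti-PD-1 tumours (29 counts), 4018 in KS100 tumours (133 counts), 7682 in anti-PD-1 tumours (7597 counts) and 6438 in control tumours (9832 counts). The 2 pools that combined an inhibitor with the antibody were the lowest, with intervals of 1328 to 1671 in AZD5363+MK1775+anti-PD-1 tumours and 1126 to 2414 in KS100+anti-PD-1 tumours that overlapped each other and none of the remaining 4.

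Several of these genes have retrocopies elsewhere in the mouse genome, and their single values are uncertain to the extent that reads were split or dropped. None of the 10 had an annotated transcript matching its last 500 bases at 95% identity over 100 bases or more. At 90% identity these ends matched transcripts of 88 other genes for Gpi1, 3 for Aldoa and 1 for Tpi1. What the 88 matches are was not examined, so the values of Gpi1 are uncertain too. Over whole transcripts, 7 of the 10 had 30 annotated copies at 90% identity over 300 bases or more, and the 21 of these that are in the table held 18 counts in all pools together. Gpi1 had 1 such copy, Gm1840, which stopped 1084 bases short of the 3′ end and held 0 counts. For Pgk1, the copies Pgk1-rs7 and Gm5537 matched at 100% over 1255 and 1252 bases and stopped 418 and 422 bases short of the transcript's 3′ end; they held 3 counts in anti-PD-1 tumours and 8 in control tumours. For Aldoa, Aldoart1 matched at 93.1% to within 2 bases of the end and held 1 count in KS100+anti-PD-1 tumours and 4 in KS100 tumours, beside 2 and 7 for Aldoa itself. Genes on the opposite strand overlap exons of Slc2a1, Gpi1, Aldoa and Tpi1, and of these Spsb2, opposite Tpi1, reached 29 counts in a pool while the rest were at 0.

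In AZD5363+MK1775+anti-PD-1 tumours 4 of the 10 genes differed from control tumours and 6 did not pass the rule. Hk2, which traps glucose, and Aldoa, which splits it, were higher, while Slc2a1, which lets glucose in, and Ldha, which makes lactate, were lower. A gene was called higher or lower where it had 20 or more counts in at least 1 pool of the pair, a normalised ratio of 2 or more either way and a 95% interval (exact conditional, Clopper-Pearson) entirely outside 1.5-fold. By this rule 2 of 10 genes were higher, beside 14.9% of the 8059 genes tested, and 2 were lower, beside 8.02%. The count of higher genes is near the share over all genes, so it is no result about the 10 as a group. Aldoa was 5.78-fold higher (5.09 to 6.55) and Hk2 4.22-fold higher (3.52 to 5.04). Slc2a1 had a ratio of 0.302 (0.174 to 0.489) and Ldha of 0.232 (0.206 to 0.260). The remaining 6 did not pass, with ratios of 1.05 (0.872 to 1.26) for Tpi1, 0.864 for Gpi1, 0.743 (0.613 to 0.894) for Pkm, 0.719 for Pgk1, 0.628 for Pgam1 and 0.524 (0.246 to 0.991) for Pfkl. The median ratio of the 10 was 0.731, beside 0.995 over all genes tested. Their sum was 6481 normalised CPM in AZD5363+MK1775+anti-PD-1 tumours and 9406 in control tumours, a ratio of 0.689 (0.651 to 0.729). Without Ldha the direction turned: the other 9 genes summed to 4989 in AZD5363+MK1775+anti-PD-1 tumours and 2969 in control tumours, a ratio of 1.68. Scaled to library totals, Tpi1 turned round to 0.651, as it did with nuclear protein-coding totals (0.969), and 2 further genes were lower, Pfkl at 0.324 (0.152 to 0.614) and Pkm at 0.460 (0.379 to 0.553). The 2 higher and 2 lower genes kept their direction and their calls under all 4 scalings run.

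RNA of other cell types moved with Aldoa and Hk2 in this comparison, that of muscle the most. All 8 muscle markers were called higher, their summed ratio was 257 (206 to 325), and Ckm, Myh4 and Myh1, which define skeletal muscle, had 319, 430 and 49 counts in AZD5363+MK1775+anti-PD-1 tumours and 2, 2 and 0 in control tumours. Fibroblast markers had a summed ratio of 5.98 (4.81 to 7.41, 6 of 8 detected in AZD5363+MK1775+anti-PD-1 tumours), macrophage markers of 5.62 (4.36 to 7.23, 8 of 8) and T cell markers of 15.2 (6.79 to 36.3, 6 of 8, on 20 counts against 10). Endothelial markers stood at 1.14 (0.803 to 1.58, 7 of 8), and red cell markers were lower at 0.183 (0.114 to 0.279, 4 of 6). The part of these cell types in the levels of Aldoa, Hk2 and the other genes was not tested. In KS100+anti-PD-1 tumours, where Hk2 had 8 counts, the 8 muscle markers together had 17 counts.

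The starts of the 4 genes called in this comparison are shown because HIF1 is known to bind the core motif ACGTG near many glycolysis genes. Each line gives RefSeq's 250 bases before and 50 after the annotated start (GRCm38.p6), 5′ to 3′ on the gene's strand, with ACGTG on either strand in capitals (on the reverse strand it reads CACGT). The windows are chr6:82774405-82774704 (minus strand) for Hk2, chr7:126799205-126799504 (minus) for Aldoa, chr4:119108495-119108794 (plus) for Slc2a1 and chr7:46846832-46847131 (plus) for Ldha. The RefSeq starts used for Aldoa and Ldha lie inside the GENCODE genes, downstream of the 5′ ends given above.
Hk2: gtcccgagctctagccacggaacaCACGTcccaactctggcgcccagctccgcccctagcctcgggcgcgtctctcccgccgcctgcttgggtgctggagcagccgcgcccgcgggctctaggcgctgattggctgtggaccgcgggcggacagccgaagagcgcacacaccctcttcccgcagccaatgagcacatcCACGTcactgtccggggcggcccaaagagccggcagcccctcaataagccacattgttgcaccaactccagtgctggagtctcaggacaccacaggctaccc
Aldoa: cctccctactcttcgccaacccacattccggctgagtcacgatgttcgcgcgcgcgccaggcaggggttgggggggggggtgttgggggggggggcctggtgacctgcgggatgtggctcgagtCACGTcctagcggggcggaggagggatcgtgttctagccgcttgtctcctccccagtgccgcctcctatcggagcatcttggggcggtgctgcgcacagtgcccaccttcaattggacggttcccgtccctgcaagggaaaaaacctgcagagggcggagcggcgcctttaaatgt
Slc2a1: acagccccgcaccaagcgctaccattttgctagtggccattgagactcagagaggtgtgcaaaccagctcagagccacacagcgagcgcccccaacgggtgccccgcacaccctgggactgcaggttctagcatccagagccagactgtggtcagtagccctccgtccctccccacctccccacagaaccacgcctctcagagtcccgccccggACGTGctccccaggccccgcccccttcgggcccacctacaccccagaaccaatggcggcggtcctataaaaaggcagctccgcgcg
Ldha: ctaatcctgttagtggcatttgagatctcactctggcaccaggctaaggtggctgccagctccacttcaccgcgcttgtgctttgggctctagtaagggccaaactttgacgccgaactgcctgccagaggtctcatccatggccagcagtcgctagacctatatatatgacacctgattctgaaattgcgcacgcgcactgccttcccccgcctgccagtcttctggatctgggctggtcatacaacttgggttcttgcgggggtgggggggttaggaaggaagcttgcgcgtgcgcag
Of the 10 genes' windows, 5 held ACGTG (Slc2a1, Hk2, Aldoa, Pgk1 and Pgam1), beside 19.6% of the 32851 windows in the table. The E-box CACGTG, a MYC motif that contains ACGTG, was in 0 of the 10 and in 7.15% of all windows. The median GC content was 65.0% in the 10 windows and 52.7% over all. Both genes called higher and 1 of the 2 called lower held the motif, and the Ldha window used here did not. RefSeq gives 2 windows for Ldha, 2 for Pkm and 3 for Aldoa. Only the window nearest the start of the gene's main annotated transcript was used. The other windows of these genes may hold the motif and were not counted, whereas the share over all counts every window. A match in these letters is a description and shows no binding.

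Genes next to these in the pathway were also mixed in AZD5363+MK1775+anti-PD-1 tumours. Of 18 other glycolysis enzymes 7 could be tested, and 2 were higher, the enolase genes Eno1 at 2.41 (1.81 to 3.18) and Eno3, the muscle enolase, at 3.42 (1.84 to 6.10). Another 2 were lower, Aldoc at 0.143 (0.0681 to 0.265), which encodes the brain form of aldolase, and Ldhb at 0.165 (0.0657 to 0.343), which encodes the heart subunit of lactate dehydrogenase. Eno1 has a near-identical retrogene in mouse, so its value is uncertain, and Gapdh stayed under 20 counts in each pool and was not tested. Of 5 transport genes tested, 2 were higher: Slc16a3, the lactate exporter MCT4, at 3.06 (2.03 to 4.52), and Bsg, its chaperone basigin, at 2.02 (1.52 to 2.66). Of 9 genes of pyruvate entry into mitochondria, Pdha1, a pyruvate dehydrogenase subunit, at 0.463 (0.311 to 0.665), and Pdk1, a kinase that inhibits that enzyme, at 0.331 (0.194 to 0.530), were lower and none was higher. Of 16 citric acid cycle genes, Idh3b at 0.259 and Suclg2 at 0.314 were lower. Of 10 glycogen genes 3 were higher and 1 lower. Among the higher ones were Pygm, the muscle glycogen phosphorylase, with 34 counts in AZD5363+MK1775+anti-PD-1 tumours and 1 in control tumours, and Pgm2 at 4.83, and Gbe1, the branching enzyme, was lower at 0.171. Of 8 tested regulators of the pathway, Egln1, an oxygen sensor that marks HIF for breakdown, was lower at 0.383 (0.206 to 0.653), and of 6 tested pentose phosphate genes none was called.

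HIF targets outside glycolysis were lower in sum in AZD5363+MK1775+anti-PD-1 tumours than in control tumours. Of 12 tested, 3 were lower and 0 higher: Bnip3, a mitochondrial autophagy receptor, at 0.120 (0.0751 to 0.183), Adm, the vessel peptide adrenomedullin, at 0.117 (0.014 to 0.431), and Ddit4, an inhibitor of mTORC1 signalling, at 0.0829 (0.017 to 0.245). The 12 genes summed to 657 normalised CPM in AZD5363+MK1775+anti-PD-1 tumours and 2062 in control tumours, a ratio of 0.318 (0.265 to 0.379).

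**Figure D3:**
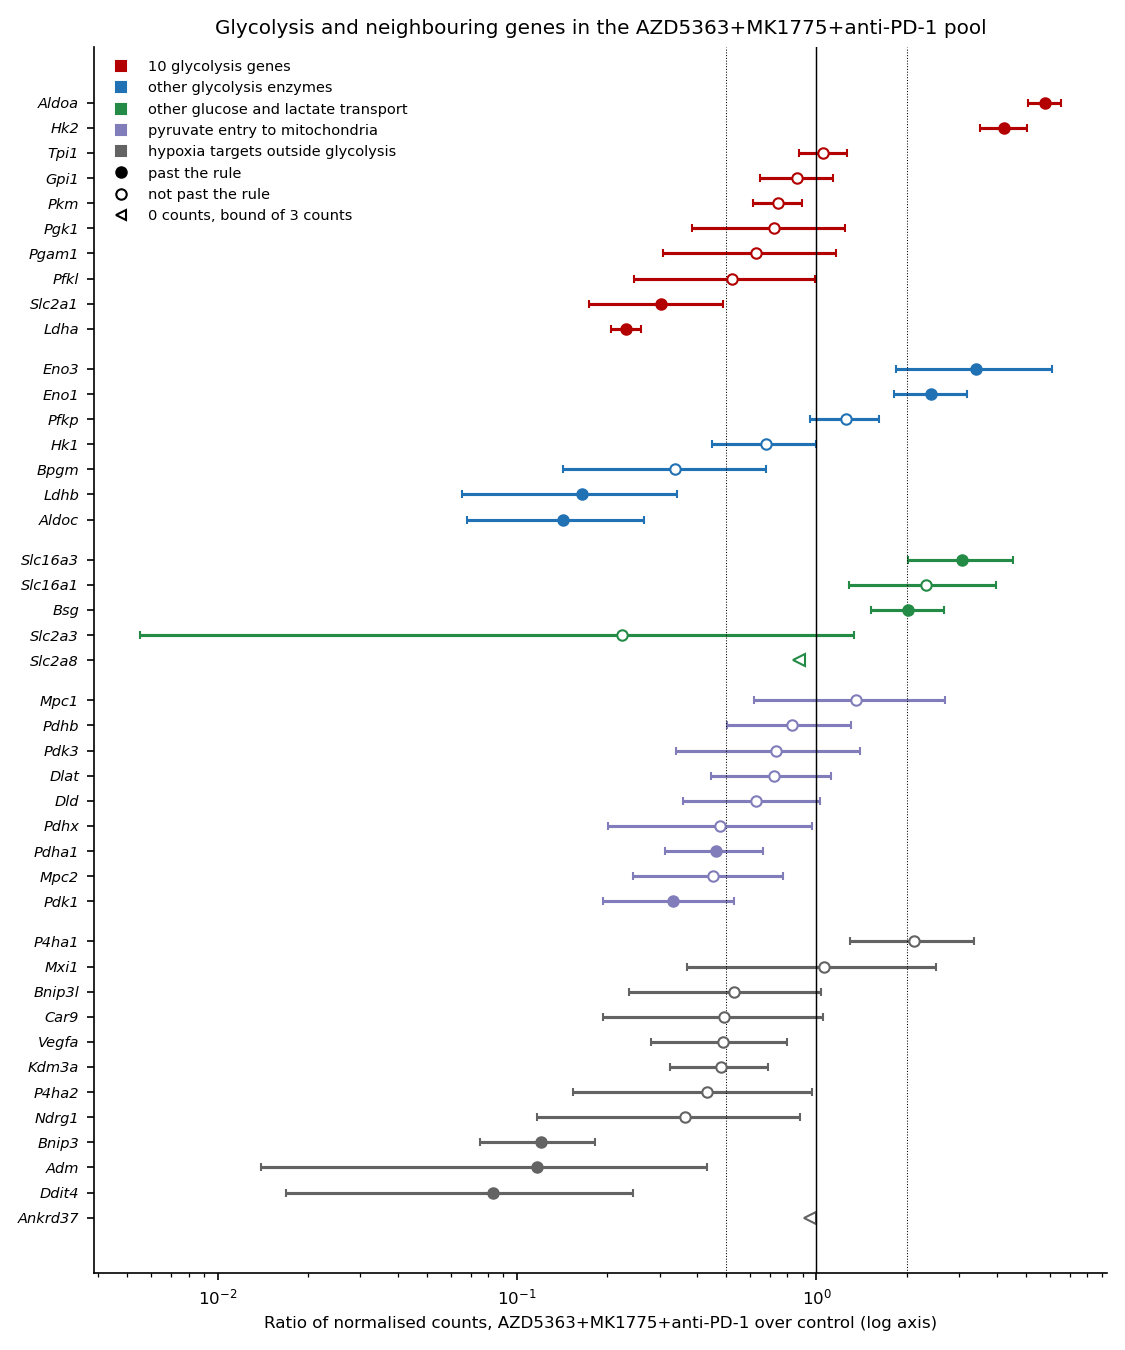
Ratio of normalised counts in AZD5363+MK1775+anti-PD-1 tumours over control tumours on a log axis for the 10 glycolysis genes and the tested genes of 4 neighbouring lists, with 95% exact intervals (counting error only). Filled points passed the rule and open ones did not, triangles mark the bound that 3 counts give for a gene with 0 counts in the treated pool, and dotted lines mark 2-fold; Aldoa at 5.78 and Hk2 at 4.22 lie at the right and Ldha at 0.232 at the left of the 10.

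Set against the pools that share their inhibitors or their antibody, AZD5363+MK1775+anti-PD-1 tumours again had more Hk2 and Aldoa and less Ldha. These comparisons use the same AZD5363+MK1775+anti-PD-1 library as the one above and are not independent of it. Against AZD5363+MK1775 tumours 6 of the 10 genes could be tested, of which 2 were higher, beside 11.1% of the 2793 genes tested, and 1 was lower, beside 3.72%. Hk2 was 5.25-fold higher (2.21 to 16.3), Aldoa 4.65-fold higher (2.69 to 8.79), and Ldha had a ratio of 0.213 (0.178 to 0.257). The median ratio over the 2793 genes tested was 2.35. With 5 and 13 counts in AZD5363+MK1775 tumours, Hk2 and Aldoa reached the minimum of 20 counts only in the deeper pool. For such genes the minimum favours ratios above 1. Scaled to library totals, Hk2 at 3.02 (1.27 to 9.41) no longer passed and Pkm at 0.390 (0.252 to 0.626) passed as lower. Against anti-PD-1 tumours all 10 were tested, and 3 were higher, beside 14.0% of 7138 genes, and 2 lower, beside 8.11%. Hk2 was 8.99-fold higher (7.05 to 11.5), Aldoa 4.05-fold (3.56 to 4.60) and Pgk1 3.44-fold (1.61 to 7.17, on 14 counts against 20), while Slc2a1 had a ratio of 0.309 (0.177 to 0.503) and Ldha of 0.194 (0.172 to 0.218). With library totals Pgk1 at 2.07 (0.968 to 4.31) no longer passed against anti-PD-1 tumours, as with nuclear protein-coding totals, and Gpi1 at 0.496 (0.369 to 0.657) and Pkm at 0.422 (0.347 to 0.510) passed as lower. The sum of the 10 had a ratio of 0.690 (0.603 to 0.792) against AZD5363+MK1775 and of 0.612 (0.577 to 0.648) against anti-PD-1. The muscle markers had 2743 counts in AZD5363+MK1775+anti-PD-1 tumours, 0 in AZD5363+MK1775 tumours and 695 in anti-PD-1 tumours.

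Without the antibody, no gene of the 10 passed the rule in AZD5363+MK1775 tumours against control tumours. None of the 10 was called higher, beside 1.65% of 7948 genes tested, and none lower, beside 1.28%. The deepest of them, Ldha, had a ratio of 1.09 (0.936 to 1.25) on 192 counts, Pkm 1.10 (0.707 to 1.63) on 25 and Aldoa 1.24 (0.658 to 2.14) on 13. Gpi1 had 3 counts and a ratio of 0.327 with an interval below 1 (0.0672 to 0.961) that did not pass. Pfkl and Pgam1 had 0 counts in AZD5363+MK1775 tumours, against 145 and 133 in control tumours, with upper limits of 1.43 and 1.56. They could not be called lower at this depth at any count, nor could Pgk1 with 148 control counts. For these genes the lack of a lower call does not show the lack of a decrease. The 10 genes summed to 9392 normalised CPM in AZD5363+MK1775 tumours and 9406 in control tumours, a ratio of 0.998 (0.879 to 1.13), or of 1.27 (1.11 to 1.43) when scaled to the counts of nuclear protein-coding genes. Their median ratio was 0.777, beside 0.479 over all genes tested, where a gene at 0 counts enters as 0. The median over all genes thus depends on depth and does not rank the 10 against other genes. Of the neighbouring genes, Ldhb was at 0 counts, against 323 in control tumours, at least 1.94-fold lower, and Mxi1, a MYC antagonist and HIF target, was higher at 6.46 (2.0 to 16.3) on 5 counts.

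The 10 genes were lower in sum in both KS100 pools. In KS100+anti-PD-1 tumours they summed to 2898 normalised CPM on 50 counts, against 9406 in control tumours, a ratio of 0.308 (0.229 to 0.406). None of the 10 was called higher, beside 4.59% of 7948 genes tested, and 3 were called lower, beside 2.86%. Ldha had a ratio of 0.261 (0.175 to 0.375) and Pkm of 0.140 (0.0169 to 0.505) on 2 counts, and Gpi1 was at 0 counts, at least 1.92-fold lower. The Gpi1 call was lost with DESeq2 size factors and with nuclear protein-coding totals. Hk2 went the other way without passing, at 2.05 (0.877 to 4.08). Depth limits the count of lower genes, as Pfkl and Pgam1, at 0 counts, had upper limits of 2.28 and 2.49 and could not be called lower. The median ratio of the 10 was 0.283, beside 0.175 over all genes tested. The latter includes genes with as few as 20 control counts, and a gene at 0 counts enters as 0. It therefore depends on depth and does not show whether the 10 were less reduced than other genes. In KS100 tumours the sum was 5378 normalised CPM, a ratio to control tumours of 0.572 (0.490 to 0.663). There none of the 10 was called higher, beside 4.50% of 7951 genes tested, or lower, beside 1.86%. Pgk1, at 0 counts, had an upper limit of 1.16 and could not be called lower at this depth. Ldha stood at 0.624 (0.522 to 0.741), Pkm at 0.437 (0.225 to 0.765) and Gpi1 at 0.362 (0.0982 to 0.932). The median of the 10 was 0.434 beside 0.702 over all genes, which depends on depth in the same way. With library totals Ldha at 0.481 (0.402 to 0.571) and Pkm at 0.337 (0.173 to 0.590) passed as lower. Melanocyte markers were also lower in sum in both KS100 pools, as given above. Fibroblast, endothelial and muscle markers had summed ratios to control tumours above 1, on 9 to 20 counts each. In KS100+anti-PD-1 tumours these were 6.29 (3.38 to 10.8) for fibroblast, 3.16 (1.5 to 5.90) for endothelial and 18.6 (10.3 to 31.6) for muscle markers. In KS100 tumours they were 4.68 (2.80 to 7.43) for fibroblast, 2.80 (1.61 to 4.57) for endothelial and 5.13 (2.26 to 10.2) for muscle markers. The muscle sums rested on 17 counts (3 of 8 markers detected) in KS100+anti-PD-1 tumours and 9 (2 of 8) in KS100 tumours. Genes that control and anti-PD-1 tumours lack had 86.4 and 73.9 counts per Mb of exon in these pools. Such background was not subtracted from the marker sums, so the muscle ratios may not reflect muscle RNA. Red cell markers were lower, at 0.194 (0.0235 to 0.704) in KS100+anti-PD-1 tumours and 0.304 (0.111 to 0.664) in KS100 tumours. Macrophage markers stood at 0.590 (0.0148 to 3.34) on 1 count in KS100+anti-PD-1 tumours and 2.46 (1.04 to 4.98) on 8 in KS100 tumours. T cell markers had 3 counts in KS100+anti-PD-1 tumours and 1 in KS100 tumours. The part of these cell types in the sums of the 10 genes was not tested.

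The KS100+anti-PD-1 tumours were also set against the pools that share their antibody or their inhibitor. Against anti-PD-1 tumours, Hk2 was higher at 4.37 (1.84 to 8.93) on 8 counts, so that 1 of the 10 was higher, beside 3.33% of 6959 genes tested. Scaled to library totals, Hk2 stood at 2.99 (1.26 to 6.11) and no longer passed. Another 3 were lower, beside 3.06%: Ldha at 0.219 (0.146 to 0.314), Pkm at 0.132 (0.0159 to 0.478) and Gpi1, at 0 counts, at least 2.01-fold. Depth limits this share too, as Pfkl and Pgam1, at 0 counts, had upper limits of 2.64 and 2.51 and could not be called lower. The Gpi1 call was again lost with DESeq2 size factors and with nuclear protein-coding totals, and that of Aldoa was gained with library totals at 0.146 (0.0177 to 0.531). Against KS100 tumours only Ldha could be tested, and it was lower at 0.418 (0.270 to 0.629), beside 34.0% of 209 genes tested called lower and 4.31% called higher. The median ratio over these 209 genes was 0.349, so the lower call is no result particular to Ldha. Ldha did not pass with DESeq2 size factors, at 0.480 (0.309 to 0.721), or with nuclear protein-coding totals, at 0.467 (0.301 to 0.702). The sum of the 10 had a ratio of 0.274 (0.203 to 0.361) against anti-PD-1 and of 0.539 (0.386 to 0.741) against KS100. About 3.53 of the 50 counts of KS100+anti-PD-1 tumours and 3.02 of the 178 of KS100 tumours would be expected on the exons of the 10 genes from the rate in genes that control and anti-PD-1 tumours lack.

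Neighbouring genes in the KS100 pools mostly could not be resolved. In KS100+anti-PD-1 tumours Aldoc, Pdha1, Mdh2 (mitochondrial malate dehydrogenase) and Pgm1 (phosphoglucomutase 1) were at 0 counts and at least 2.0-fold, 1.92-fold, 2.57-fold and 2.16-fold lower than in control tumours. Bnip3 was lower at 0.191 (0.0394 to 0.559), while Rpia, a pentose phosphate isomerase, was higher at 6.92 (2.17 to 17.0) on 5 counts. In KS100 tumours 4 of 16 citric acid cycle genes were lower: Suclg1, Idh3a and Suclg2 at 0 counts, at least 2.91-fold, 2.01-fold and 1.92-fold, and Sdhb, a succinate dehydrogenase subunit, at 0.249 (0.0678 to 0.641). Taldo1, the pentose phosphate transaldolase, and Kdm3a, a HIF target, were also at 0, at least 2.54-fold and 3.54-fold lower.

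The anti-PD-1 and control tumours, the 2 deepest, differed in 2 of the 10 transcripts, and both were lower with the antibody. Hk2 had a ratio of 0.469 (0.373 to 0.585) and Pgk1 of 0.209 (0.124 to 0.334) in anti-PD-1 tumours against control tumours. These 2 of 10 called lower stood beside 2.14% of the 8119 genes tested, and none of the 10 was called higher, beside 2.69%. The copies of Pgk1 named above held 3 counts in anti-PD-1 tumours and 8 in control tumours, beside 20 and 148 for Pgk1 itself. Aldoa at 1.43 (1.27 to 1.61) and Ldha at 1.19 (1.16 to 1.23) had intervals above 1 without passing. The other 6 had ratios between 0.873 and 1.06. The 10 genes summed to 10595 normalised CPM in anti-PD-1 tumours and 9406 in control tumours, a ratio of 1.13 (1.10 to 1.16), and their median was 0.988 beside 0.997 over all genes. Without Ldha the sums were 2913 and 2969. Among the neighbours Eno1 was lower at 0.245 (0.166 to 0.354), and Slc16a3 at 2.30 (1.75 to 3.03), Pfkfb3 at 2.53 (1.64 to 3.94), whose product makes the activator of phosphofructokinase, and the HIF targets Ndrg1 at 2.49 (1.94 to 3.22) and Mxi1 at 2.84 (1.93 to 4.21) were higher. Red cell, fibroblast and muscle markers were also more abundant in anti-PD-1 tumours, with 3696, 1675 and 703 normalised CPM against 596, 129 and 53.0 in control tumours, and their part in these values was not tested.

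**Figure D4:**
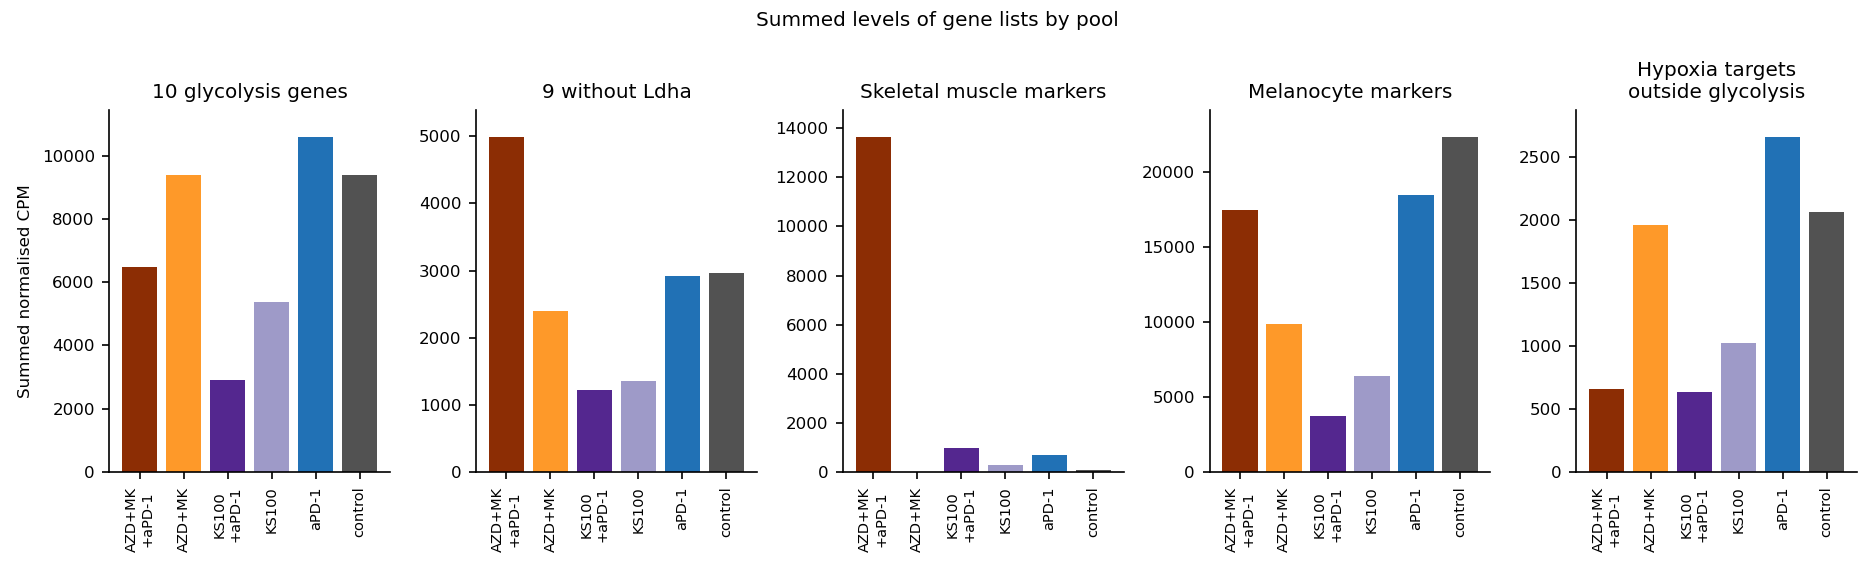
Summed normalised CPM of the 10 glycolysis genes, of the 9 without Ldha, of skeletal muscle markers, of melanocyte markers and of 12 HIF targets outside glycolysis in each pool, 1 library per bar (aPD-1, anti-PD-1; AZD+MK, AZD5363+MK1775). The 10 genes summed to 2898 in KS100+anti-PD-1 tumours and 10595 in anti-PD-1 tumours, and the muscle markers to 13643 in AZD5363+MK1775+anti-PD-1 tumours.

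A model over all 6 pools asked whether an inhibitor or the antibody moved these genes in the same way across the arms. It took inhibitor and antibody as additive, which leaves pools of other treatments to serve as replicates with 2 residual degrees of freedom. An antibody ratio that differs between arms, as for Hk2 and Ldha, enters the residual and makes a call less likely. For such genes the lack of a call does not show the lack of an effect. By edgeR's quasi-likelihood test with Benjamini-Hochberg adjustment over 4912 genes, none of the 10 passed an adjusted p of 0.05 for AZD5363+MK1775, KS100 or anti-PD-1, and DESeq2 called none of them either. Over all genes the test called 1.34% for AZD5363+MK1775, 7.70% for KS100 and 0.143% for anti-PD-1. At an unadjusted p under 0.05 stood 0 of the 10 for AZD5363+MK1775 (423 genes in all), 2 for KS100 (931 genes) and 0 for anti-PD-1 (104 genes). Those 2 were Gpi1, with a log2 change of -2.17 ± 1.06 (SE) and an edgeR adjusted p of 0.239, and Pkm, with -1.87 ± 0.93 and 0.247, each lower than its counterpart without inhibitor in both KS100 pools. For KS100 the log2 change of Ldha was -1.58 ± 1.06 (edgeR adjusted p 0.424). For AZD5363+MK1775, Hk2 had a log2 change of 1.37 ± 0.92 (edgeR adjusted p 0.763) and Aldoa of 1.36 ± 0.84 (0.716). In single pairs the ratios of Hk2 and Aldoa to control were 4.22 and 5.78 with the antibody and 0.803 and 1.24 without it. The edgeR adjusted p was 0.999 for each of the 10 genes under anti-PD-1, where Hk2 had a log2 change of 0.96 ± 0.79 and Ldha of -1.08 ± 0.89. The median log2 change of the 10 was -0.45 for AZD5363+MK1775, -1.36 for KS100 and 0.04 for anti-PD-1, beside -0.08, -0.47 and 0.08 over all genes fitted.

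The genes whose pattern over the 5 treated pools was most like that of the summed 10 were Prkar1a, Nup88, Mdm2, Ctnnd1 and Gnai3. Likeness was the root mean square difference of log2 changes against control tumours (log2 of normalised CPM plus 20) over these 5 pools, among 1161 nuclear protein-coding genes with 200 or more control counts and a count in every pool. It ranged from 0.10 for Prkar1a, a regulatory subunit of protein kinase A, to 0.19 for Gnai3, and each of the 5 genes had 1 to 3 counts in KS100+anti-PD-1 tumours.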

How the data were processed

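The data were deposited by the authors as a single table of read counts per Ensembl mouse gene for 6 pooled libraries, made with the QuantSeq 3′ FWD kit and sequenced on a MiSeq, per the labels' protocols. The kit primes on poly(A) tails and reads transcript ends, so counts were not divided by length. Reads were handled with bcl2fastq, HISAT2 2.1.0 and HTSeq on GRCm38, per the submitters' processing notes. The strand option, the treatment of multi-mapping reads and the gene model release were not given in the sources used here, so overlapping antisense genes may share reads. Totals ran from 25521 to 1591673 counts, which sets the precision of each value. The 92 spike-in rows were all at 0 and were left out. Gene symbols and positions came from GENCODE M21 and promoter windows from RefSeq.

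Counts were scaled by TMM (edgeR 4.0.16, R 4.3.3) to normalised CPM. Each of the 9 comparisons set 1 library against another, without replicates or p-values, and ratios carry 95% exact conditional (Clopper-Pearson) intervals. Calls use these intervals, and the fold of a called gene with 0 counts is given as a bound against 3 counts. The additive model was fitted with edgeR after filterByExpr to 4912 genes, with the quasi-likelihood test and Benjamini-Hochberg adjustment, and its SE is the log2 change divided by the square root of F. DESeq2 1.42.0 was an alternative, with other scalings, count minimums, thinning to 25521 counts and leaving out each pool. Scripts were tested on simulated counts. Copies were sought with blastn among annotated transcripts. The search over whole transcripts was chosen after seeing the data. The 10 genes, the neighbouring lists and the marker lists were chosen with earlier results of these data known. All 10 genes are named in each comparison. Of the other lists at most 4 genes past the rule are named, those with the most counts, together with the 5 genes of nearest pattern. A neighbouring gene that passed the rule is not reported here.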

Additional observations from a re-analysis of the deposited data

Results flagged for a closer look

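For the 10 genes in sum, for Hk2 and for Ldha, the ratio of anti-PD-1 to IgG lay on opposite sides of 1 with an inhibitor and without one. With 1 library per treatment these differences between arms were not tested, and each rests on single pools. Over all genes tested, the median antibody ratio was 2.35 with AZD5363+MK1775, 0.349 with KS100 and 0.997 with no inhibitor. These medians depend on depth, and the ratios below are not shown to be particular to these genes.

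The antibody ratio of the summed 10 genes was 0.690 (0.603 to 0.792) in the AZD5363+MK1775 arm and 0.539 (0.386 to 0.741) in the KS100 arm, against 1.13 (1.10 to 1.16) with no inhibitor. The quotients over the arm with no inhibitor were 0.613 and 0.478. For Ldha, the antibody ratio was 0.213 with AZD5363+MK1775 and 0.418 with KS100, against 1.19 with no inhibitor, quotients of 0.179 and 0.351. Hk2 went the other way, with antibody ratios of 5.25 (2.21 to 16.3) with AZD5363+MK1775 and 5.12 (1.23 to 29.9, on 8 counts against 3) with KS100, against 0.469 (0.373 to 0.585) with no inhibitor, quotients of 11.2 and 10.9.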

How the results depend on the processing

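The summed ratio turned round in 4 comparisons without Ldha: to 1.68 for AZD5363+MK1775+anti-PD-1 against control, 1.71 against anti-PD-1 and 2.08 against AZD5363+MK1775, and to 0.981 for anti-PD-1 against control. Without Ldha it also moved to 0.410 for KS100+anti-PD-1 against control, 0.418 against anti-PD-1 and 0.895 against KS100, to 0.809 for AZD5363+MK1775 against control and to 0.458 for KS100 against control. Scaled to library totals, the sums of AZD5363+MK1775+anti-PD-1 moved to 0.427 against control, 0.368 against anti-PD-1 and 0.397 against AZD5363+MK1775, those of KS100+anti-PD-1 to 0.217 against control and 0.187 against anti-PD-1, that of KS100 to 0.441 and that of anti-PD-1 to 1.16, which DESeq2 size factors also gave (1.16). Scaled to nuclear protein-coding counts, the sums of AZD5363+MK1775+anti-PD-1 moved to 0.635 against control, 0.551 against anti-PD-1 and 0.502 against AZD5363+MK1775, and that of AZD5363+MK1775 against control to 1.27. Relative to TMM, library totals shifted all log2 ratios against control by -0.69 for AZD5363+MK1775+anti-PD-1, -0.51 for KS100+anti-PD-1 and -0.38 for KS100.

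Thinning to 25521 counts left fewer of the 10 genes over the minimum. Shares below are of all genes tested, called in either direction. For AZD5363+MK1775+anti-PD-1, 2 of 3 tested members were called against control, beside 40.2%, and 2 of 2 against anti-PD-1, beside 46.6%. For KS100+anti-PD-1, 1 of 1 was called against anti-PD-1, beside 66.3%, and 0 of 1 against KS100, beside 51.0%. For anti-PD-1 against control, 0 of 2 were called, beside 4.55%. On so few genes these counts are no result about the 10. Library totals gave 2 of 10 for KS100 against control, beside 7.28%. DESeq2 size factors gave 0 of 1 for KS100+anti-PD-1 against KS100, beside 29.2%. The cause was not tested. Library totals also moved the split, to 2 higher and 4 lower for AZD5363+MK1775+anti-PD-1 against control and against anti-PD-1, to 1 and 2 against AZD5363+MK1775, and to 0 and 4 for KS100+anti-PD-1 against anti-PD-1. DESeq2 size factors left 2 lower, in place of 3, for KS100+anti-PD-1 against control (beside 6.98%) and against anti-PD-1 (beside 6.25%). In the additive model none of the 10 was called under any alternative, and leaving out each pool in turn gave 0 to 0 called for each effect, with 7 of the 10 fitted where a deep pool was left out. Adding the counts of annotated copies left the sums within their intervals. No paired analysis was possible because each treatment has 1 library. Depth limits the AZD5363+MK1775 and both KS100 pools.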
